A study of Mus musculus with 4 samples.

Results

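The light chains of striated muscle myosin were followed over the 4 cell populations of this series through 5 mouse genes, Myl2, Myl3, Myl4, Myl7 and Myl1. The probe of each gene was found by its exact RefSeq transcript identifier in the array files (NM_010861 for Myl2, NM_010859 for Myl3, NM_010858 for Myl4, NM_022879 for Myl7 and NM_021285 for Myl1), which gave 5 genes of the 20882 named on the array, each with 1 probe printed as 1 spot. RNA came from mouse pluripotent stem cells that differentiated without leukemia inhibitory factor. Flk1+ MPCs were mesodermal precursor cells at day 4.5, positive for the VEGF receptor Flk1 (the Kdr gene). PCBs were PDGFRα+ Flk1- cardioblasts at day 5.5, obtained with CsAYTE, a mixture of Cyclosporin A, which closes the mitochondrial permeability pore, Y27632, which blocks the kinase ROCK, Trolox, which is an antioxidant, and EW7197, which blocks the TGFβ receptor ALK5. The sfPCBs were cardioblasts that formed spontaneously by day 5.5 without CsAYTE, where DMSO was the control vehicle. M+CMs were cardiomyocytes at day 10.5, recognised by GFP from an αMHC promoter transgene and described in the methods as progeny of PCBs. Their label does not say whether CsAYTE was in the medium. In the study's cultures Flk1+ MPCs were placed on mitomycin-treated OP9 feeder cells, a mouse stromal line, and the labels do not name the cell line behind each array. There was 1 array per population, so culture-to-culture variation had no estimate, no test between populations was possible, and every difference below is a difference between 2 arrays.

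Muscle myosin is a pair of heavy chains, and the neck of each heavy chain binds 1 essential and 1 regulatory light chain. In the adult heart the regulatory chain is MLC2v, made by Myl2, in the ventricle and MLC2a, made by Myl7, in the atrium. The essential chain is MLC1v, made by Myl3, in the ventricle and in slow skeletal muscle, and MLC1a, made by Myl4, in the atrium and in embryonic muscle. Myl1 makes the essential chains of fast skeletal muscle. The forming heart tube of the mouse holds chains of both kinds, and they become restricted to their chambers as the heart matures, with Myl7 transcripts spread more widely than Myl2 transcripts at early stages. Serum response factor with its partner myocardin, MEF2, GATA and NKX2-5 proteins are known regulators of such genes.

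The upstream sequences of Myl3 and Myl7 are shown because the signals of these genes differed most between the day 5.5 populations among the chains detected in both, and because these windows held a CArG box, the site that serum response factor binds. Each is the 250 bases before the annotated start, from the RefSeq table for GRCm38.p6, written 5′ to 3′ on the gene's strand with the CArG box in capitals. The Myl3 window lies at chr9:110763428-110763677 (+ strand) and the Myl7 window at chr11:5898783-5899032 (- strand).
Myl3: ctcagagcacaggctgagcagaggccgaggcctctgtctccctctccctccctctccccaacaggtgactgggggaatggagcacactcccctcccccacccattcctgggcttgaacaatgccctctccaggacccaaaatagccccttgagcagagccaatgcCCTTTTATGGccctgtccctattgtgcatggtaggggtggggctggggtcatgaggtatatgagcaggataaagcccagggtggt
Myl7: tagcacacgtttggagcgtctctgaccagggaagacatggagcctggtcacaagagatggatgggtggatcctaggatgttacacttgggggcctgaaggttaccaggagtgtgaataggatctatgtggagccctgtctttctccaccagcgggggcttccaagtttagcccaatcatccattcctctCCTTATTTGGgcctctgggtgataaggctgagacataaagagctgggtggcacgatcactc
The CArG box of Myl3 lay 85 to 76 bases before the start, and that of Myl7 lay 61 to 52 bases before it. A CArG box on either strand was present in 2 of the 6 windows listed for the 5 genes and in 1.47% of all 32851 mouse windows of this length. The GATA core GATAA was in 3 of 6 windows (22.6% of all windows), the E-box CANNTG in 5 of 6 (66.2%), the TEAD core CATTCC in 3 of 6 (12.6%), the NKX2-5 core TNAAGTG in 0 of 6 (10.1%) and the MEF2 site in 0 of 6 (2.92%), each searched on both strands. The CATTCC match of Myl7 at 70 to 65 bases before the start did not overlap its CArG box, and its GATAA lay 41 to 37 bases before the start. These matches describe letters in the window only, and the motifs were chosen after the sequences had been seen. The windows of Myl4 and Myl1 did not lie at the outer end of their genes, so the outermost starts of these genes were not covered, whereas 1 of the 2 Myl2 windows did.

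Of the 43020 non-control spots on an array, between 73.3% and 76.2% were called well above background by the scanner software. The values are the software's background-subtracted spot intensities, scaled so that the 75th percentile of every array was 2198.4, in arbitrary units. The lowest signals called well above background lay between 15.1 and 15.9, and no spot was saturated. The error given after each signal is the software's own estimate for that spot, which grew with the signal and gave an error of about 0.20 on a log2 ratio. It covers 1 spot on 1 array, and all arrays lay on 1 slide. Signals of different probes depend on the probe as well as the transcript, so each gene is compared only with itself across populations. The sort genes were read first. Pdgfra, the receptor used to sort cardioblasts, gave 7236.6 in the Flk1+ MPC array, 3646.6 for sfPCBs, 9135.9 for PCBs and 918.3 for M+CMs. One Kdr probe gave 54864.4, 4559.1, 767.8 and 2126.2 in the same order, whereas the other gave 11262.6, 6660.6, 7272.5 and 7498.6, so the probes of Kdr disagreed on the size of the loss. The brighter probe of Myh6, the αMHC gene behind the GFP sort, gave 116.3, 128.0, 82856.8 and 478626.8. Its other probe gave 14.2, 14.8, 457.5 and 26554.9, with the Flk1+ MPC and sfPCB signals not well above background. The Myh6 probes thus disagreed on the size of the step from PCBs to M+CMs (log2 ratios 2.53 and 5.86).

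All 5 light chain genes had their highest signal in M+CMs and their next highest in PCBs. Their paths to that level differed. Taken as a share of the M+CM signal of the same probe, the PCB signal was 40.6% for Myl4, 33.9% for Myl7, 32.1% for Myl1, 17.3% for Myl3 and 2.76% for Myl2. In sfPCBs of the same day, none of these 5 genes had a signal above that in Flk1+ MPCs by more than the spot errors.

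**Figure D1:**
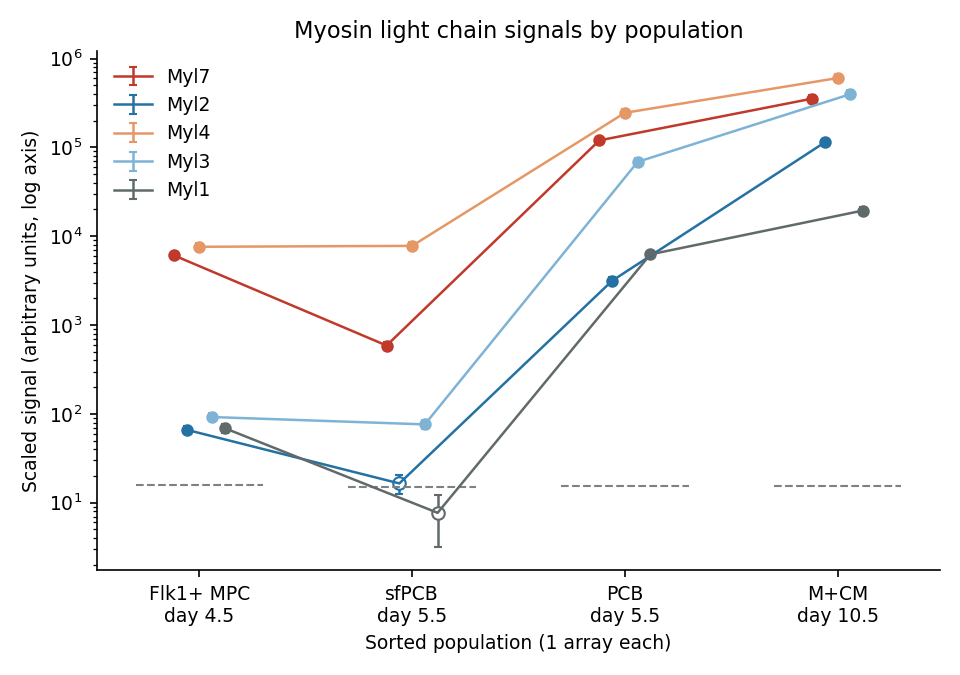
Scaled signal (arbitrary units, log axis) of the probe of each light chain gene in the 4 populations, 1 array each. Error bars are the software's error of the spot, open circles are signals not well above background, and dashed lines are the lowest signals called well above background; lines join the same gene and stand for no time course of one culture. Myl4 and Myl7 were already bright in Flk1+ MPCs (7600.1 and 6095.4), Myl2 and Myl1 were at background in sfPCBs, and all 5 genes were highest in M+CMs.

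Among the regulatory chains, the atrial gene Myl7 had a signal of 6095.4 ± 609.5 in Flk1+ MPCs, which was 588.2 ± 59.0 in sfPCBs, 119770.6 ± 11977.1 in PCBs, and 353286.0 ± 35328.6 on the M+CM array. It was thus readily measured at the mesodermal stage, lower in cardioblasts without CsAYTE and high in both PCBs and M+CMs. The ventricular gene Myl2 had a signal of 66.3 ± 7.4 at the Flk1+ MPC stage, 16.5 ± 4.1 in sfPCBs, 3149.7 ± 315.0 in PCBs, with 113949.3 ± 11394.9 in M+CMs. The sfPCB signal of Myl2 was not well above background, and its PCB signal was the smallest share of the M+CM signal among the 5 genes.

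Among the essential chains, the atrial and embryonic gene Myl4 gave 7600.1 ± 760.0 for Flk1+ MPCs, 7786.6 ± 778.7 for sfPCBs, 244632.4 ± 24463.2 for PCBs and 602695.6 ± 60269.6 for M+CMs. Its levels in Flk1+ MPCs and sfPCBs differed by less than the spot errors. The ventricular gene Myl3 gave 92.2 ± 9.8, 76.2 ± 8.2, 68633.3 ± 6863.3 and 397276.5 ± 39727.6 in the same order, and its Flk1+ MPC and sfPCB levels likewise did not differ beyond the errors. Myl1, the fast skeletal gene, gave 69.0 ± 8.3, 7.7 ± 4.5, 6242.4 ± 624.3 and 19467.0 ± 1946.7, with the sfPCB signal not well above background. A separate Myl1 probe for another transcript (NM_001113387) gave 3.2 in Flk1+ MPCs and 3.4 in sfPCBs, both not well above background, against 321.1 for PCBs and 1515.5 for M+CMs. The probes shared the order of PCBs and M+CMs, but the second showed no Flk1+ MPC signal above that of sfPCBs. Of 6 genes that mark skeletal muscle, the regulators Myod1, Myf5 and Myog were not well above background in PCBs or M+CMs. Pax7, also among the 6, gave 51.0 in Flk1+ MPCs, 27.3 in sfPCBs and 24.3 in M+CMs, and was not well above background in PCBs. Mylpf was detected in PCBs (38.7) and M+CMs (26.6) and not in Flk1+ MPCs or sfPCBs, and the muscle creatine kinase gene Ckm gave 79.2 in M+CMs, at least 5.09-fold above PCBs. The summed signal of the 6 genes lay between 62.2 and 158.7 in the 4 populations, with 1 to 3 of the 6 detected.

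The comparison of PCBs with Flk1+ MPCs asks what had changed 1 day after the sorted mesodermal cells met CsAYTE. In PCBs all 5 light chain genes reached a 2-fold increase over Flk1+ MPCs and 0 were lower by that much, where 12.8% of the 30811 probes compared were 2-fold or more higher, 12.1% were lower, and the median log2 ratio of all probes was -0.20. At least 30-fold differences were seen for 4 of the 5, against 1.36% of all probes. Myl3 was 745-fold higher (log2 ratio 9.54 ± 0.21), Myl1 90.5-fold (6.50 ± 0.23), Myl2 47.5-fold (5.57 ± 0.22), Myl4 32.2-fold (5.01 ± 0.20) and Myl7 19.6-fold (4.30 ± 0.20). A larger ratio than that of Myl3 was found for 27 probes, and a larger one than that of Myl7 for 568. The atrial chains Myl4 and Myl7, whose probes were already bright in Flk1+ MPCs, showed the smaller folds. That order rests partly on dim signals, since the log2 ratio of Myl2 was 4.59 with normexp background correction, which models the local background and adds an offset of 50, while that of Myl4 was 5.02. The log2 ratio of Myl3 was 8.69 and that of Myl1 was 5.30 under this correction.

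The comparison of sfPCBs with Flk1+ MPCs covers the same step without the mixture. None of the 5 light chain genes was at least 2-fold higher in sfPCBs (13.1% of 30689 probes were). At least 2-fold lower were 3 of the 5 (12.6% of all probes were), with a median log2 ratio of -0.22 over all probes. Myl7 was 10.4-fold lower (log2 ratio -3.37 ± 0.20). Myl2 was 4.02-fold lower, a plain ratio to an sfPCB signal not well above background, and so no lower limit. For the scaled signals, Myl1 was at least 4.56-fold lower, a bound because its sfPCB signal was not well above background either. The other Myl1 probe was not well above background in either population. Myl3 (log2 ratio -0.27 ± 0.22, and 0.06 without scaling) and Myl4 (0.03 ± 0.20) did not differ beyond the spot errors. With normexp, only Myl7 of the 5 was still at least 2-fold lower, and Myl2 and Myl1 had log2 ratios of -0.91 and -0.72.

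PCBs and sfPCBs were both taken at day 5.5, with and without CsAYTE, so this comparison is matched in day. Stromal and endothelial markers also differed between the 2 arrays, as given below. The mixture and the makeup of the sorted cells therefore cannot be told apart here. All 5 light chain genes exceeded the sfPCB signal at least 30-fold in PCBs, which held for 0.272% of the 30118 probes compared (6.13% were 2-fold or more higher and 7.36% lower), and the median log2 ratio was 7.67 for the 5 genes and 0.03 for all probes. Myl3 was 900-fold higher in PCBs (log2 ratio 9.81 ± 0.21), and 0 of the 30118 probes had a larger ratio. Myl7 was 204-fold higher (7.67 ± 0.20), with a larger ratio for 8 probes. For the scaled signals, Myl1 was at least 412-fold higher, a bound set by the lowest sfPCB signal called well above background. Myl2 was 191-fold higher, a plain ratio to an sfPCB signal (16.5) not well above background, and so no lower limit. Myl4, with its clear signal in sfPCBs, was 31.4-fold higher (4.97 ± 0.20), close to the 30-fold line, and lay just below it without scaling (4.82) and with normexp (4.88). The other sizes depended on how dim signals were treated. With normexp, with or without quantile normalization, and with an offset of 50 on the signals, the log2 ratio was at most 9.09 for Myl3, 6.77 for Myl1 and 5.59 for Myl2, and at least 5.36 for each of them, still above 30-fold. In bulk RNA, fewer cells that express a gene and less RNA per cell cannot be told apart, so the sfPCB values do not say how many of its cells held light chain transcripts.

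M+CMs against PCBs spans day 5.5 to day 10.5 and the step from cardioblast to cardiomyocyte. The signal of all 5 genes was 2-fold or more higher in M+CMs and 0 were lower, as 20.5% of 31132 probes were higher and 15.4% lower. With quantile normalization 4 of the 5 were, since Myl4 had a log2 ratio of 0.99, and 0.92 when normexp came first. Only Myl2 among them was at least 30-fold higher, against 0.646% of all probes. Myl2 was 36.2-fold higher (log2 ratio 5.18 ± 0.20), and 161 probes had a larger ratio. The other ratios were 5.79-fold for Myl3 (2.53 ± 0.20), 3.12-fold for Myl1 (1.64 ± 0.20), 2.95-fold for Myl7 (1.56 ± 0.20) and 2.46-fold for Myl4 (1.30 ± 0.20), each beyond the spot errors. Between 10.3% and 14.7% of all probes had a larger ratio than Myl1, Myl7 and Myl4.

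Over the whole course, from Flk1+ MPCs to M+CMs, all 5 genes were at least 30-fold higher, as were 1.96% of 31539 probes, with 22.4% of all probes 2-fold or more higher and 21.9% lower. Myl3 was 4310-fold higher (log2 ratio 12.07 ± 0.21) and Myl2 1720-fold (10.75 ± 0.22), ahead of Myl1 at 282-fold (8.14 ± 0.23), Myl4 at 79.3-fold (6.31 ± 0.20) and Myl7 at 58.0-fold (5.86 ± 0.20). Both ventricular chains had larger folds than both atrial chains here, also with normexp and with the offset, which put Myl3 at log2 ratios of 11.09 to 11.45, Myl2 at 9.73 to 9.94 and Myl1 at 6.87 to 7.36.

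**Figure D2:**
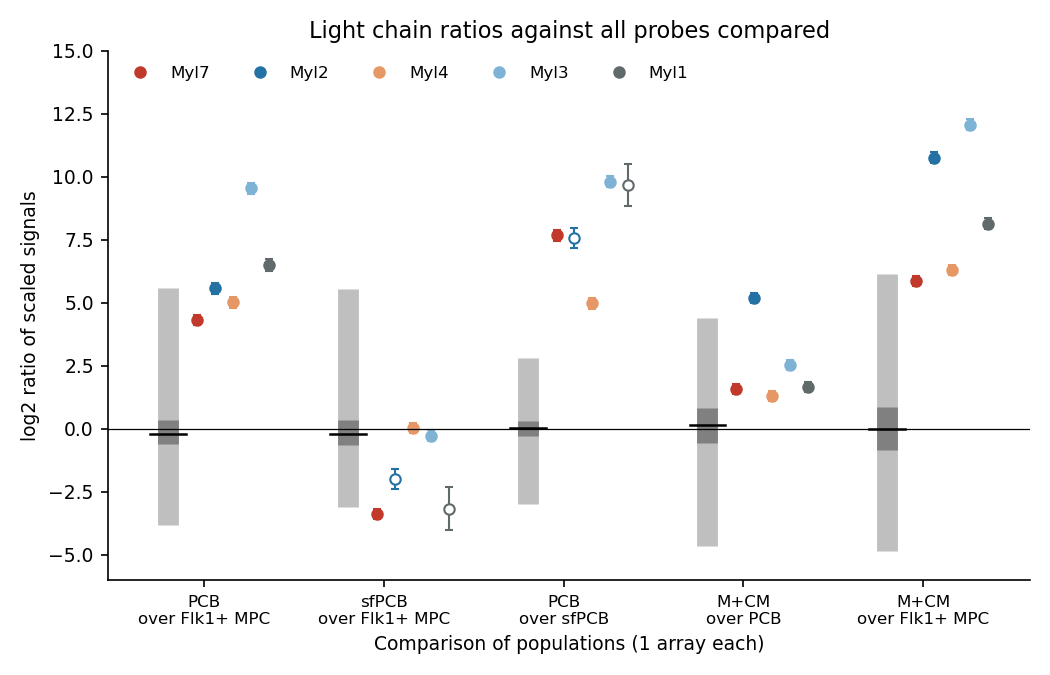
Log2 ratio of the scaled signals for each light chain gene (points, bars are the error from the spot errors) in 5 comparisons of 2 arrays each. Grey bars hold the 25th to 75th (dark) and 1st to 99th (light) percentile of all probes compared, the black line is their median, and open circles rest on a signal not well above background. The 5 genes lie between 4.97 and 9.81 for PCB over sfPCB, and for M+CM over PCB only Myl2, at 5.18, lies above the light bar.

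The balance of ventricular and atrial chains was followed as the difference of their log2 ratios, which needs no comparison of levels between probes. For the regulatory pair, Myl2 was higher in M+CMs relative to PCBs by 12.3-fold more than Myl7 (difference of log2 ratios 3.62 ± 0.29), and by 29.6-fold more relative to Flk1+ MPCs (4.89 ± 0.30). Between PCBs and Flk1+ MPCs the difference was 1.27 ± 0.30, but 0.30 with normexp and 0.50 with an offset of 50 added to the signals, so its size depended on how dim Myl2 signals were treated. Between PCBs and sfPCBs it was -0.09 ± 0.44, within the errors, and rested on a Myl2 signal not well above background. For the essential pair the larger shift came at the earlier step. Myl3 exceeded Myl4 by 4.53 ± 0.29 between PCBs and Flk1+ MPCs and by 4.84 ± 0.29 between PCBs and sfPCBs, against 1.23 ± 0.29 between M+CMs and PCBs. The first of these was 3.66 with normexp and 3.92 with the offset. Between M+CMs and Flk1+ MPCs the difference was 5.76 ± 0.29. Between sfPCBs and Flk1+ MPCs this pair did not differ beyond the errors (-0.31 ± 0.30). The essential chains Myl1 and Myl4 differed by 1.49 ± 0.30 between PCBs and Flk1+ MPCs, which was 0.27 with normexp and 0.73 with the offset, and by 0.34 ± 0.29, within the errors, between M+CMs and PCBs.

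**Figure D3:**
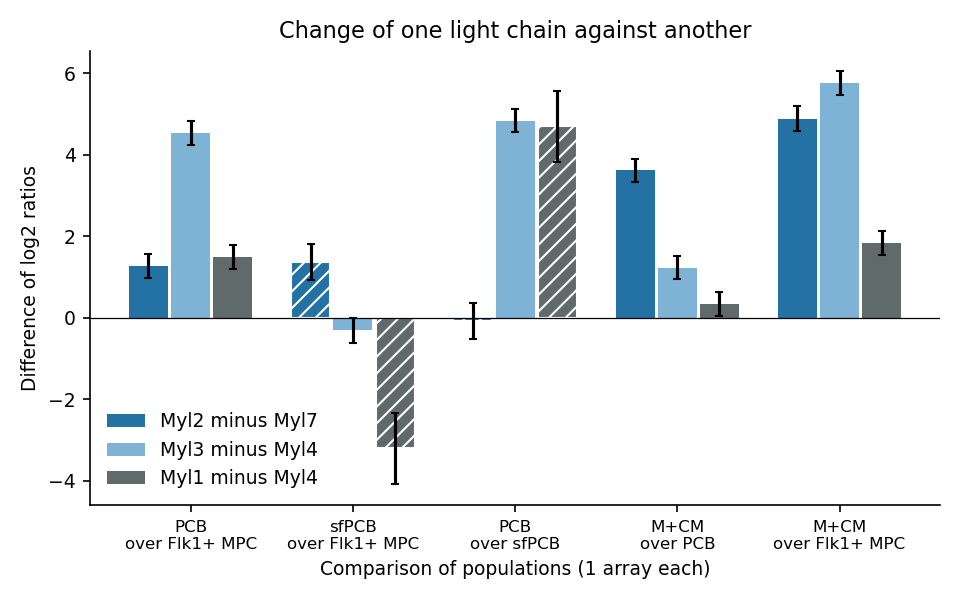
Difference between the log2 ratios of 2 light chain genes (bars from 0, error bars from the spot errors) in the 5 comparisons of 2 arrays each, with hatched bars where 1 of the signals was not well above background. Myl3 minus Myl4 is 4.53 and 4.84 where PCBs are set against the other early populations, 1.23 for M+CM over PCB and 5.76 for M+CM over Flk1+ MPC. Myl2 minus Myl7 is highest, at 3.62 and 4.89, in the comparisons with M+CMs.

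The other light chain genes on the array were those of smooth, non-muscle and fast skeletal muscle. Of 7 genes compared between PCBs and sfPCBs, 2 were 2-fold or more higher in PCBs and 0 lower, with a median log2 ratio of 0.31, beside 5.98% of all genes higher and 8.70% lower. One of these was Myl1. The other was Mylpf, the regulatory chain of fast skeletal muscle, with 6.5 for Flk1+ MPCs, 3.5 for sfPCBs, 38.7 for PCBs and 26.6 for M+CMs, the first pair not well above background. Between M+CMs and PCBs, 3 of 8 genes were at least 2-fold higher (20.0% of all genes were) with a median of 0.12, equal to the median of 0.12 over all genes, and over the whole course 4 of 8 were (22.4%), with a median of 0.92. Myl9, the regulatory chain of smooth muscle, stood out with 5211.6 for Flk1+ MPCs, 16136.0 for sfPCBs, 21459.9 for PCBs and 604757.5 for M+CMs. It differed little between the day 5.5 populations (log2 ratio 0.41 ± 0.20) and was 28.2-fold above PCBs in M+CMs (4.82 ± 0.20). Myl6, the widely expressed essential chain, was 2.16-fold above Flk1+ MPCs in M+CMs (1.11 ± 0.14 over 2 probes).

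Kinases and phosphatase subunits set the phosphorylation of the regulatory chains. Of 11 genes, 1 was at least 2-fold higher and 1 lower in PCBs than in sfPCBs (median log2 ratio 0.05, beside 5.98% of all genes higher and 8.70% lower), and 4 were higher and 0 lower in M+CMs than in PCBs (median 0.39, beside 20.0% of all genes higher and 17.0% lower). The brighter probe of Mylk3, the light chain kinase of heart muscle, gave 37.3 for Flk1+ MPCs, 51.4 for sfPCBs, 155.2 for PCBs and 885.3 for M+CMs. Over both of its probes it was 22.9-fold above Flk1+ MPCs in M+CMs (4.52 ± 0.36), and 2.71-fold above sfPCBs in PCBs (1.44 ± 0.25). Camk2d, a calcium-dependent kinase of heart muscle, was 22.6-fold above Flk1+ MPCs in M+CMs over 3 probes (4.50 ± 0.12), but its day 5.5 populations differed by a log2 ratio of only -0.12 ± 0.12. Mylk, the smooth muscle light chain kinase, gave 33.0, 74.1, 31.1 and 222.2 in the order above. It was 7.14-fold above PCBs in M+CMs (2.84 ± 0.26) and was the gene counted as lower in PCBs, 2.38-fold below sfPCBs (-1.25 ± 0.27). The probes of Ppp1r12b, a targeting subunit of the myosin phosphatase, disagreed. One gave 104.0, 83.5, 141.7 and 642.9, and the other was not well above background on any array.

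Of the 12 myosin heavy chain genes, the partners of the light chains, 9 could be compared between PCBs and sfPCBs, and 5 were 2-fold or more higher in PCBs (median log2 ratio 2.22, beside 5.98% of all genes higher and an all-gene median of 0.01). Myh7, the slow heavy chain of the fetal ventricle, gave 122.2 for Flk1+ MPCs, 525.5 for sfPCBs, 235857.2 for PCBs and 228989.6 for M+CMs. It was 449-fold above sfPCBs in PCBs (8.81 ± 0.20) and did not differ beyond the spot errors between PCBs and M+CMs (-0.04 ± 0.20), the interval in which Myl2 was 36.2-fold higher. The 2 probes of Myh6, the heavy chain gene whose promoter drives the GFP, were 9.48 and 5.01 higher on the log2 scale in PCBs than in Flk1+ MPCs, the second from a Flk1+ MPC signal not well above background. Myh8, known as the perinatal heavy chain of skeletal muscle, had 2 probes that disagreed on size. Their log2 ratios of PCBs over sfPCBs were 9.29 and 3.37, the second from an sfPCB signal not well above background, and those of M+CMs over PCBs were 3.23 and 4.08. Its sequence is close to that of Myh6, and probe sequences were not used here, so a shared signal between these probes was not tested.

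Among 18 other sarcomere genes, 14 of the 17 compared were at least 2-fold above sfPCBs in PCBs and 0 were lower, with a median log2 ratio of 3.74 (5.98% of all genes were higher and 8.70% lower). In M+CMs against PCBs, 16 of 18 were higher and 0 lower, with a median of 3.24 (20.0% and 17.0% of all genes). Tnnt2, cardiac troponin T, gave 150.2 for Flk1+ MPCs, 3175.7 for sfPCBs, 145594.9 for PCBs and 403180.4 for M+CMs. It was 21.1-fold above Flk1+ MPCs in sfPCBs (log2 ratio 4.40 ± 0.21). In that comparison Myl2, Myl3, Myl4, Myl7 and Myl1 were not higher beyond the errors. Mybpc3, the cardiac myosin binding protein C, was 414-fold above sfPCBs in PCBs (8.69 ± 0.23) and 13.3-fold above PCBs in M+CMs (3.74 ± 0.20). Ttn, the giant protein titin, was 68.3-fold above sfPCBs in PCBs over 4 probes (6.09 ± 0.15), which ranged from 5.17 to 7.16 on the log2 scale. Tnni3, the adult cardiac troponin I, was named here after its values were seen. It gave 52.5, 64.1, 227.6 and 105985.0 in the order above, which was 3.55-fold above sfPCBs in PCBs (1.83 ± 0.23) and 466-fold above PCBs in M+CMs (8.86 ± 0.21).

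**Figure D4:**
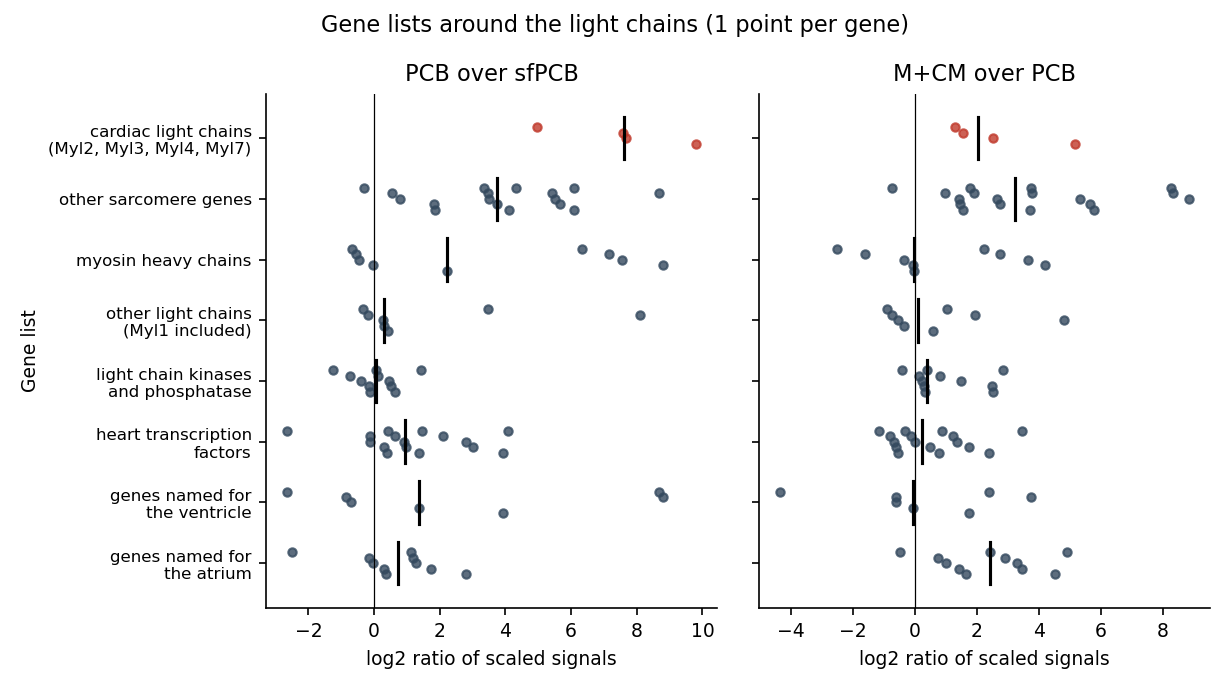
Log2 ratio of the scaled signals for each gene of the lists around the light chains (points, mean over a gene's probes; black lines are list medians) for PCB over sfPCB and for M+CM over PCB, 1 array per population. Genes detected on at least 1 of the arrays are shown. The cardiac light chains (red) lie to the right of most other lists for PCB over sfPCB, while for M+CM over PCB their range, 1.30 to 5.18, lies within that of the other sarcomere genes.

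The chamber names of the light chains were set beside gene lists named for a chamber, whose genes are not all limited to that chamber. Of 7 genes named for the ventricle, 3 were at least 2-fold higher and 1 was lower in M+CMs than in PCBs (median log2 ratio -0.04). The 3 were Mybpc3 (3.74), Nkx2-5 (2.41) and Irx4 (1.75), and the lower gene was Gja1 (-4.35). Of 11 genes named for the atrium, 9 were higher and 0 lower (median 2.44), beside 20.0% and 17.0% of all genes. Among the 9, the probes of Gja5 disagreed (4.71, from a PCB signal not well above background, and 0.17). Those of Kcna5 did too (2.99 and 0.29). The median of 2.44 is the mean of the Gja5 probes. Between PCBs and sfPCBs the counts were 4 higher and 1 lower of 7 for the ventricle (median 1.36) and 5 higher and 1 lower of 10 for the atrium (median 0.73), beside 5.98% and 8.70% of all genes. Within the atrial list, Sln, sarcolipin, gave 3.5, 8.5, 28.4 and 861.1, with the Flk1+ MPC and sfPCB signals not well above background, and was 30.4-fold above PCBs in M+CMs (4.92 ± 0.27). Nr2f2, which encodes the atrial regulator COUP-TFII, gave 43.4, 595.2, 756.6 and 5712.7. M+CMs were thus higher than PCBs for most genes of the atrial list, as they were for the ventricular and the atrial light chains. The arrays do not resolve whether these transcripts came from the same cells.

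Of 16 transcription factors known for heart genes, 7 were at least 2-fold higher and 1 was lower in PCBs than in sfPCBs (median log2 ratio 0.95, beside 5.98% and 8.70% of all genes), and 5 were higher and 1 lower in M+CMs than in PCBs (median 0.25, beside 20.0% and 17.0%). Myocd, which encodes myocardin, gave 155.9 for Flk1+ MPCs, 983.8 for sfPCBs, 16718.7 for PCBs and 13450.1 for M+CMs. It was 17.0-fold above sfPCBs in PCBs (4.09 ± 0.20) and did not differ beyond the errors between M+CMs and PCBs (-0.31 ± 0.20). Nkx2-5 gave 656.7, 590.8, 9016.3 and 47780.2, 15.3-fold above sfPCBs in PCBs (3.93 ± 0.20). Tbx5, a regulator of the atria and the left ventricle, gave 687.3, 396.5, 2759.4 and 30264.7, and was 11.0-fold above PCBs in M+CMs (3.46 ± 0.20).

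Markers of other cells differed between the same populations. Myh6, Tnnt2, Actn2, Nkx2-5, Ryr2 and Nppa served as 6 cardiomyocyte markers, all detected on every array. Their summed signal was 1249.7 for Flk1+ MPCs, 4203.0 for sfPCBs, 164150.5 for PCBs and 638123.9 for M+CMs. Such sums follow the brightest probes, and Tnnt2 alone gave 3175.7 in sfPCBs. From Flk1+ MPCs to sfPCBs the markers did not move together, with a median log2 ratio of 0.26. Tnnt2 (4.40) and Ryr2 (2.58) were clearly higher in sfPCBs, whereas Actn2 (-1.82) was lower. Nppa (0.43), Myh6 (0.10) and Nkx2-5 (-0.15) changed less than 2-fold. The sum over 8 stromal genes fixed as markers of the OP9 feeder was 4150.3, 285659.5, 143465.6 and 22376.9 in the same population order. The arrays detected 5, 8, 7 and 8 of these genes. Of these 8 genes, 0 were at least 2-fold higher and 6 lower in PCBs than in sfPCBs, beside 5.98% and 8.7% of all genes. Lum gave 8781.9 in sfPCBs and 30.2 in PCBs, and Postn gave 12883.5 in sfPCBs and was not well above background in PCBs. Thy1 went the other way, with 1065.2 in Flk1+ MPCs, 102.4 in sfPCBs and 147.2 in PCBs. Col1a2 gave 175055.7 in sfPCBs and 109297.8 in PCBs, and precursor cells of mesoderm can express such collagens too. The sum of 5 endothelial genes was 3145.6 in sfPCBs and between 236.5 and 426.0 elsewhere, and that of 5 blood genes was 3417.1 in sfPCBs, 3100.5 in PCBs and between 202.1 and 299.3 in the others. The sum of 5 smooth muscle genes was 25829.9, 189987.9, 254443.0 and 413842.6 in the order above. For 4 genes of Flk1+ mesoderm, Kdr, Mesp1, T and Etv2, the sum was 88323.8, 12416.7, 2470.5 and 4040.5. All 4 were at least 2-fold lower in PCBs than in sfPCBs, beside 8.7% of all genes, with Kdr as the mean of its disagreeing probes. The part of these cell types in the light chain differences was not tested.

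The genes with the nearest profiles were sought among 22494 probes with a curated RefSeq identifier, by the root mean square difference of log2 signals over the 4 arrays after each probe's mean was taken off. With 4 arrays this is a description. Nearest to Myl3 were Myh6 (0.20), Myh8 (0.27) and Asb2 (0.58), the last a muscle ubiquitin ligase subunit. Nearest to Myl4 were the calsequestrin gene Casq1 (0.22), the zinc finger gene Casz1 (0.22) and the cardiac actin gene Actc1 (0.29). The other chains had more distant neighbours. For Myl7 these were Shisa6 (0.68), Slc24a2 (0.69) and Slc32a1 (0.80), for Myl2 Myh7b (0.99), the dimmer Myh6 probe (0.99) and Plppr5 (1.02), and for Myl1 Myh7b (0.85), Fitm1 (1.06) and Myl7 (1.07). Among the light chains themselves, Myl7 and Myl1 were the closest pair (1.07), and Myl3 and Myl4 the most distant (2.69). All distances of Myl1 and Myl2 rest partly on sfPCB signals not well above background.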

How the data were processed

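RNA of 4 mouse populations was measured on 1-colour Agilent arrays, 1 per population. The authors deposited spot intensities, background-subtracted by Feature Extraction 11.5.1.1 (headers name mouse build mm9), and a value table of log2 signals. That table matched the log2 of the processed intensities without scaling (within 0.001 for 99.7% to 99.8% of probes, column medians 6.88 to 7.40). Control spots and outlier flags were dropped, signals were divided by the array's 75th percentile and brought to a common level, and spots of 1 probe were averaged as log2 values. Comparisons covered probes detected on at least 1 of 2 arrays. A bound divides the brighter signal by the higher of the dim signal and the lowest signal well above background on that array. Where the dim signal was the higher, the bound equals the plain ratio and is no lower limit. A difference lay beyond the errors when it exceeded 1.96 times its error. Symbols came from the RefSeq table for GRCm38.p6 through the transcript identifier (27502 of 39429 probes, 69.8%). Myl5, Mylk4 and Smpx had no named probe. Arrays were scaled by factors between 0.867 and 1.116, and their number limits the precision. Genes named from lists were the 4 (light chains, kinases) or 3 (others) with the largest log2 ratio of M+CMs over Flk1+ MPCs. The genes and lists were chosen with earlier results of these data known. The counting step was tested on simulated data. Alternatives were no scaling, quantile normalization, normexp on median intensities (offset of 50) with and without it, an offset of 50, the brightest probe, saturated spots left out, the authors' log2 table and other detection filters. Python 3.11.15 (numpy 2.4.6, pandas 2.3.3, matplotlib 3.10.9) and R 4.3.3 with limma 3.58.1 were used.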

Additional observations from a re-analysis of the deposited data

How the results depend on the processing

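Of 150 light chain ratios under 6 alternatives, 33 moved by more than 1.96 times their error, 11 each with normexp, normexp with quantile normalization and an offset of 50, all of them ratios of Myl2, Myl3 or Myl1. The sign turned only for Myl3 in sfPCBs over Flk1+ MPCs, from -0.27 to 0.06 without scaling and with the authors' value table, which holds the unscaled signals. The alternatives with normexp or the offset add 50 to the signals, which by construction shrinks ratios against dim signals. Among them was the log2 ratio of Myl1 for sfPCBs over Flk1+ MPCs, -3.17 as reported and -0.58 with normexp and quantile normalization. At least 30-fold higher were 3 light chain genes in place of 4 for PCBs over Flk1+ MPCs with normexp (with or without quantile normalization) and with the offset, and 4 in place of 5 for PCBs over sfPCBs without scaling, with the authors' value table and with normexp. For M+CMs over PCBs, the 2-fold count was 4 and not 5 with quantile normalization, with or without normexp. Leaving out saturated spots and taking the brightest probe per gene could not change a light chain value, since 0 spots were saturated and each of the 5 identifiers had 1 probe. The number of light chain genes at least 2-fold lower in sfPCBs than in Flk1+ MPCs was 3, but 1 with normexp, with or without quantile normalization, and 2 with the offset. For PCBs over Flk1+ MPCs, the difference Myl2 minus Myl7 (1.27) was 0.30 with normexp, 0.12 with normexp and quantile normalization and 0.50 with the offset. Myl3 minus Myl4 (4.53) was 3.66, 3.45 and 3.92 in the same order, and Myl1 minus Myl4 (1.49) was 0.27, 0.09 and 0.73. Of the 15 nearest profiles, 8 were shared when detection on all arrays was required and 1 with Pearson correlation in place of the distance. The cause of these last changes was not tested. Of 630 gene list counts under alternatives, 72 moved by over 1.5 times. Without scaling, the median log2 ratio of all probes went from -0.22 to 0.11 for sfPCBs over Flk1+ MPCs and from 0.15 to -0.06 for M+CMs over PCBs. No paired analysis was possible because each population had 1 array, and for the same reason no replicate could be left out.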
